A study of Mus musculus with 24 samples.

Results

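Gene expression after 18 h of lipopolysaccharide (LPS), the outer membrane glycolipid of Gram-negative bacteria, was compared with that of unstimulated mouse macrophages held for the same time. The comparison used 6 of the 24 RNA sequencing libraries of the study, chosen by their labels as the 3 that received LPS for 18 h and the 3 left unstimulated for 18 h. All 6 came from wild-type C57BL/6 mice, whose bone marrow cells became macrophages over 7 days in culture with 20 ng/mL of the macrophage growth factor CSF-1, which the unstimulated cells therefore received too. LPS was given at 20 or 100 ng/mL; which of these doses applies to the libraries used here is not stated. Nor is the origin of replicates stated, as animals or as cultures, so that p-values cover the spread among libraries alone and this spread may be technical. Of 43629 gene identifiers in each file, 12765 had enough counts to be tested. A pair of neighbouring comparisons served to place the 18 h response: LPS for 1 h against cells unstimulated for 1 h, and LPS with 50 ng/mL interferon gamma (IFNg) for 18 h against LPS alone for 18 h, each with 3 libraries a group of the same cells.

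LPS is recognised by TLR4 with its co-receptors CD14 and MD-2. The receptor signals through a pair of adaptor routes, MyD88 at the cell surface and TRIF from endosomes. The first leads to NF-kappaB and MAP kinases and to early cytokine genes, and the second also to IRF3, interferon beta and, through the interferon receptor, to the interferon-stimulated genes. In macrophages these waves are known to be followed by a change in metabolism, in surface receptors and in the rate of cell division.

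Total counts in the 6 libraries ran from 5032096 to 6424723. Levels are given as CPM, counts scaled to a common library size. At this depth a count of 0 over the 3 libraries of a group allowed up to 0.158 CPM without and 0.191 CPM with LPS (3 counts a group, counting error only). The 10 most abundant genes took 9.01% to 9.55% of the counts in unstimulated libraries and 11.8% to 13.7% in LPS libraries. Summed macrophage markers, 12 genes such as Adgre1, Csf1r, Cd68 and Lyz2, stood at 17200 to 19100 CPM in unstimulated and 26900 to 28300 CPM in LPS libraries; 9 of the 12 rose and 1 fell. T cell and NK cell markers summed to 3.13 to 5.49 CPM without and 3.96 to 9.46 CPM with LPS, mostly Cd4. Of these, 1 of 12 rose (Cd4), and 7 were at 0 in all 6 libraries, among them Cd3d, Cd3e and Cd8a. Neutrophil markers summed to 145 to 221 CPM without and 296 to 343 CPM with LPS; 2 of 12 rose (Csf3r and S100a8) and 4 fell, while Elane and Ly6g were under 1 CPM in both groups. Dendritic cell markers summed to 188 to 240 CPM and 115 to 136 CPM, mostly Itgax, with 2 of 10 higher (Xcr1 and Ccr7) and 2 lower. B cell markers summed to 29 to 36.8 CPM and 2.65 to 3.54 CPM, with 2 of 9 lower, and erythroid markers to under 1 CPM in each library. Mast cell markers summed to 2.35 to 3.05 CPM without and 7.75 to 14.6 CPM with LPS, with 1 of 7 higher (Hdc). Stromal markers summed to 0.508 to 1.57 CPM and 5.15 to 7.75 CPM, with 1 of 8 higher (Dcn). Endothelial markers summed to 98.5 to 104 CPM and 51.3 to 72.3 CPM, with 2 of 7 higher (Kdr and Pecam1) and 1 lower (Vwf). The part of these 3 lists in the results was not tested. In bulk RNA a change in the number of cells of a type and a change in RNA per cell cannot be told apart.

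LPS replicate 2 lay apart from its group. The chi-square per gene between its counts and those of replicates 1 and 3 was 8.4 and 10.3, against 2.28 between replicates 1 and 3 and 1.58 to 2.55 between unstimulated replicates. Its distance followed transcript length. Of the genes with a known exon length and at least 20 CPM, the shortest 1342 (up to 2597 bases of exon) lay a median of 0.28 log2 units above the mean of the other LPS libraries in replicate 2, and the longest 1343 (from 8054 bases) lay 0.29 below. No unstimulated library had a bin beyond 0.02 from the other libraries of its group. Among the 12 genes furthest below in replicate 2 were Cbl, which encodes a ubiquitin ligase and stood at 123, 36.7 and 125 CPM in LPS replicates 1, 2 and 3, and Mid1 (a deviation of -1.51 log2 units), Hipk2 (-1.40), Vps13c (-1.32), Lnpep (-1.23) and Lyst (-1.20). Of 6729 genes with at least 20 CPM in the mean of LPS libraries, 30 lay at least 2-fold below the others in replicate 2 and 1 lay at least 2-fold above. The cause was not tested. Unstimulated replicate 3 had a read in 19108 genes where the other unstimulated libraries had 16040 and 16650, and it held several LPS-induced transcripts at a low level: 5.33 CPM of Saa3 against 0 and 0.149, and 1.88 CPM of Il1b against 0.339 and 0. These levels lie far under those of the LPS libraries. For named genes, a value that moved by over 1.5 times in fold without a library at 18 h is also given without that library.

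**Figure D1:**
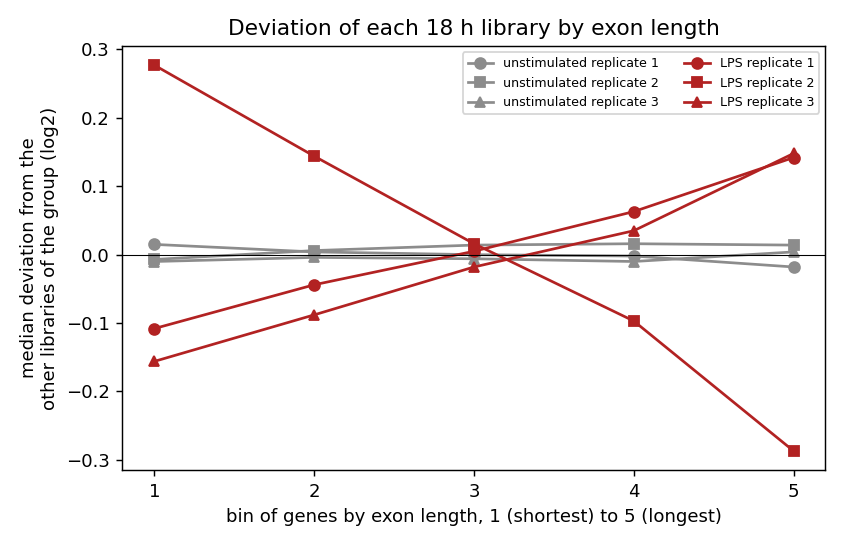
Median deviation of each 18 h library from the mean of the other libraries of its group, in log2 units, for 5 bins of genes ordered by exon length. The line of LPS replicate 2 runs from 0.28 in the shortest bin to -0.29 in the longest, LPS replicates 1 and 3 run the opposite way because each is set against replicate 2, and the unstimulated libraries stay within 0.02 of 0.

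The answer to 18 h of LPS was broad. Of the 12765 genes tested, 4055 were higher and 4000 lower at an adjusted p below 0.05 (edgeR quasi-likelihood test, Benjamini-Hochberg adjustment), 31.8% and 31.3% of all tested genes. Of these, 1493 were at least 2-fold higher and 1764 at least 2-fold lower by the fitted change, and 166 and 145 passed 32-fold by it. The fitted change is used here also for genes with 0 counts in a group, where counts give only a bound. Such genes were 26 of the called rises and 41 of the called falls. Since 63.1% of genes changed, the counts given for each gene group below are to be read against 31.8% higher, 31.3% lower and a median log2 change of 0.006 over all tested genes. Values after gene names are log2 changes ± SE with 3 libraries in each group. Means are given ± SD over 3 libraries, and rose or fell is written only of genes that passed the test. Changes are relative to a scaling (TMM) that sets the bulk of genes to 0. Scaling by library totals alone moved the median of all genes to -0.41 and gave 2079 higher and 6984 lower genes; gene groups whose median turned negative with it are marked. Reads of a gene and of an overlapping gene on the opposite strand cannot be separated here, since the strand setting of the counting was not given in the sources used here, and this touches Acp2, Acp5, Acsl1, Arg2, Bcl2, Bcl3, Ccnd1, Ccnd2, Ccnd3, Cd274, Cd276, Cd9, Cdkn1a, Cebpb, Cgas, Ciita, Cp, Csf1r, Cx3cr1, Cxcl10, Cxcl16, Dab2, Ddit3, Dkc1, Dusp1, Elovl6, Ezh2, Fcgr2b, Fn1, Gas6, Gbp2, Hexa, Hif1a, Icam1, Il12rb2, Il18bp, Il1a, Il1b, Il4ra, Irak3, Irf1, Irf7, Itgav, Kdm6b, Maf, March1, Mmp12, Myd88, Nfkb2, Nlrc5, Oasl1, Pdia3, Psmb8, Psmb9, Ptgs1, Rpl10a, Rpl12, Shmt2, Slamf7, Slc11a2, Slc7a2, Sort1, Tap1, Tap2, Thbs1, Tk1, Tlr3, Tnfsf13, Usp18, Zfp36l1 and Zfp36l2 among the genes named below.

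**Figure D2:**
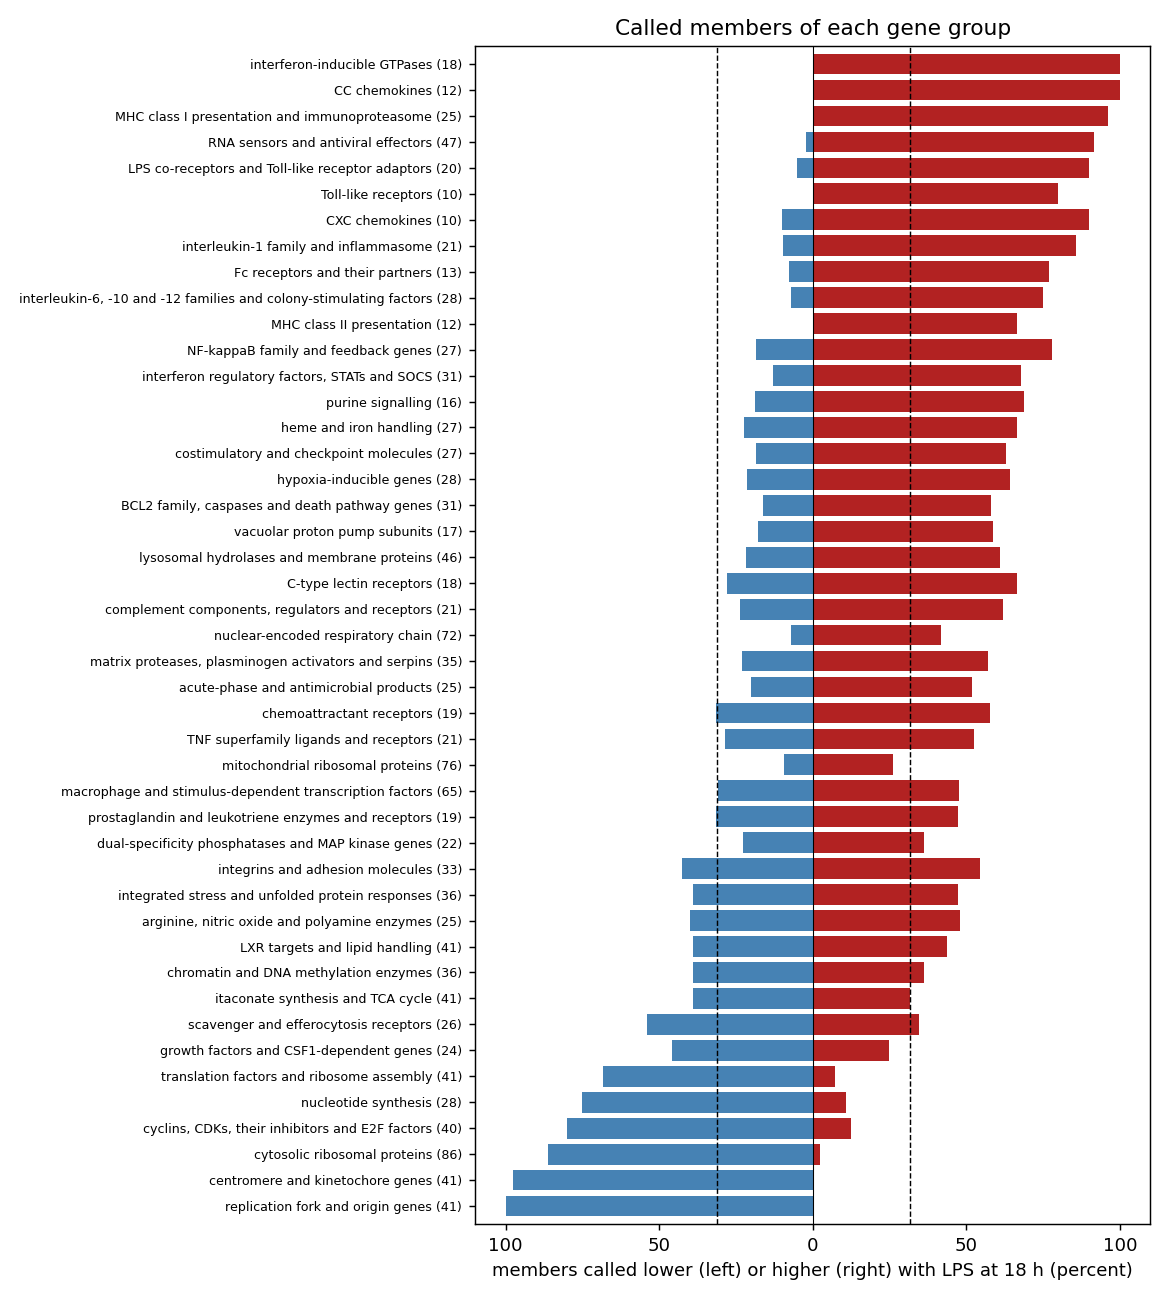
Share of measured members called higher (right) and lower (left) after 18 h of LPS in 45 gene groups, in percent, with the number tested beside each name and dashed lines at 31.8% and 31.3%, the shares over all tested genes. Interferon-inducible GTPases and CC chemokines reach 100% higher, replication genes reach 100% lower, and most metabolic groups hold members on both sides.

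Il1b, the fever cytokine (ENSMUSG00000027398, chromosome 2, 129364570 to 129371139 on GRCm38), was read at 0.339, 0 and 1.88 CPM in unstimulated and 731, 893 and 685 CPM in LPS libraries. Il1a, which encodes its cell-associated relative, stood at 0.339, 0 and 1.1 CPM in unstimulated and 441, 464 and 397 CPM in LPS libraries. For both the groups were far apart and the change was 9.99 ± 0.71 and 9.78 ± 0.51. These folds rest on few unstimulated counts. Il1b was 9.38 without unstimulated replicate 2 and 4820-fold higher by summed counts without unstimulated replicate 3 (95% counting interval 1330 to 39800). Il1a was 9.17 without unstimulated replicate 2 and 2730-fold higher by summed counts without unstimulated replicate 3 (95% counting interval 756 to 22600). Of 21 measured genes of the interleukin-1 family and inflammasome, 18 rose and 2 fell (median 1.84). Among them Il1rn, whose product blocks the interleukin-1 receptor, went from 68.3 ± 10.9 to 3577 ± 325 CPM (5.71 ± 0.11), and Il18bp, encoding a decoy for interleukin-18, rose by 5.61 ± 0.16. Il1r1, the signalling receptor, was 115-fold higher by summed counts (95% counting interval 31.4 to 955). The inflammasome genes moved less: the pyrin gene Mefv rose by 4.13 ± 0.25, the LPS-sensing caspase gene Casp4 by 3.33 ± 0.15, Casp1 by 2.12 ± 0.09, the pore-former gene Gsdmd by 1.67 ± 0.09 and the sensor gene Nlrp3 by 0.69 ± 0.08. Nlrp1b (-0.85 ± 0.14) and the interleukin-18 receptor subunit gene Il18rap (-2.41 ± 0.42) fell.

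Of 28 measured genes of the IL-6, IL-10 and IL-12 families and colony-stimulating factors, 21 rose and 2 fell (median 1.89; 19 higher and 5 lower with library-size scaling). Il6 was read at 0, 0 and 0.157 CPM in unstimulated and 8.53, 12.1 and 7.57 CPM in LPS libraries; with 1 count in the unstimulated group it was 176-fold higher by summed counts (95% counting interval 31.2 to 7020). Il12b, the shared subunit of interleukin-12 and interleukin-23, was 73.7-fold higher by summed counts (95% counting interval 12.7 to 2960), and Csf3, encoding the neutrophil growth factor G-CSF, was at least 17.3-fold higher. The single unstimulated count of Il6 and of Il12b was in replicate 3, without which they were at least 39.1-fold higher and at least 16.3-fold higher. Il10, the anti-inflammatory cytokine gene, rose only from 3.16 ± 0.252 to 7.93 ± 1.99 CPM (1.31 ± 0.28). Csf2 and Il23a had no counts in any of the 6 libraries, although both had been induced at 1 h. Receptor genes rose beside the ligands, with Il4ra going from 77.9 ± 3.18 to 1132 ± 114 CPM (3.86 ± 0.10), Il15ra by 4.13 ± 0.25, Il21r by 3.55 ± 0.15 and the G-CSF receptor gene Csf3r by 2.71 ± 0.16. Il12rb2 fell (-2.97 ± 0.28), as did Il6st, the shared signalling subunit of the interleukin-6 receptors (-0.96 ± 0.14).

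All 12 measured CC chemokine genes rose, with a median of 3.75, or 2.72 with the 1 gene that had no counts in a group at its bound. Ccl5, a T cell and monocyte attractant, was read at 1.35, 1.19 and 3.29 CPM in unstimulated and 3425, 4569 and 3267 CPM in LPS libraries (10.90 ± 0.29, edgeR adjusted p = 9.7e-28; 11.51 without unstimulated replicate 3). Ccl12 (6.64 ± 0.39), Ccl7 (4.75 ± 0.15) and Ccl2 (4.10 ± 0.10) are monocyte attractants, and Ccl2 reached 838 ± 48.4 CPM. Ccl3 and Ccl4, encoding macrophage inflammatory proteins, rose less (1.23 ± 0.11 and 2.04 ± 0.12), and Ccl6 and Ccl9, which unstimulated cells already held at 184 ± 10.9 and 578 ± 24.6 CPM, rose by 0.43 ± 0.10 and 0.84 ± 0.08, the first not called with library-size scaling.

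Of 10 CXC chemokine genes 9 rose and 1 fell (median 5.35). Cxcl9 and Cxcl10, the interferon-induced attractants of activated T cells, went from 0.26 ± 0.0792 to 144 ± 10.4 CPM (8.98 ± 0.85) and from 2.23 ± 0.431 to 392 ± 44.4 CPM (7.46 ± 0.38). Cxcl2 and Cxcl3 attract neutrophils; the first rose by 6.06 ± 0.27, and the second was at least 407-fold higher. Cxcl1, another neutrophil attractant, reached 7.11 ± 2.81 CPM (4.63 ± 0.80). Cxcl16, a membrane-bound chemokine, went from 117 ± 10.5 to 786 ± 89.3 CPM (2.75 ± 0.09). Cxcl14 fell (-2.29 ± 0.27). The stretch of 160 bases upstream of the start site is shown for 4 rising genes of the chemokine and NF-kappaB groups, because the windows of these groups often hold letters that resemble an NF-kappaB site. The search was for GGANTTNCC on both strands, a shortened form of the kappaB consensus, over 250 upstream bases. It was found in 4 of 8 CXC chemokine genes with a window and 9 of 22 genes of the NF-kappaB group (40.9%), but in 0 of 7 CC chemokine genes, against 3.49% of 9362 tested genes with a window and 3.15% of all 32851 windows. A match is a description of letters and not a bound site. Sequences are from RefSeq on GRCm38.p6, 5' to 3' in the gene's direction, with matches in capitals. Cxcl1 lies at chr5:90891085-90891244 (plus strand), Cxcl2 at chr5:90903739-90903898 (plus), Cxcl10 at chr5:92348890-92349049 (minus) and Nfkbia at chr12:55492648-55492807 (minus).
Cxcl1: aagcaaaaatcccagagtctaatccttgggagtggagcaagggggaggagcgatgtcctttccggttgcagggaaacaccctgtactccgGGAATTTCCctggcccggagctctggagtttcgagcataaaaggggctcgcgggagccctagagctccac
Cxcl2: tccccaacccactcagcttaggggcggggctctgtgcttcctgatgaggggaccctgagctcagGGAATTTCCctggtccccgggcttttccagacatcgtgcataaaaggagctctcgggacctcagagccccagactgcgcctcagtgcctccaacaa
Cxcl10: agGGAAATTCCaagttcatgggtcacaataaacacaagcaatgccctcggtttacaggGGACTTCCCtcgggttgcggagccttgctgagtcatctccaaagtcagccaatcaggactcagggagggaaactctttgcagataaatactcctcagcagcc
Nfkbia: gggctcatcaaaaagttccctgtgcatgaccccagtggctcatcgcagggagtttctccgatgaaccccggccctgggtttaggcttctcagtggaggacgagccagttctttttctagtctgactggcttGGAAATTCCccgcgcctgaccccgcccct

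**Figure D3:**
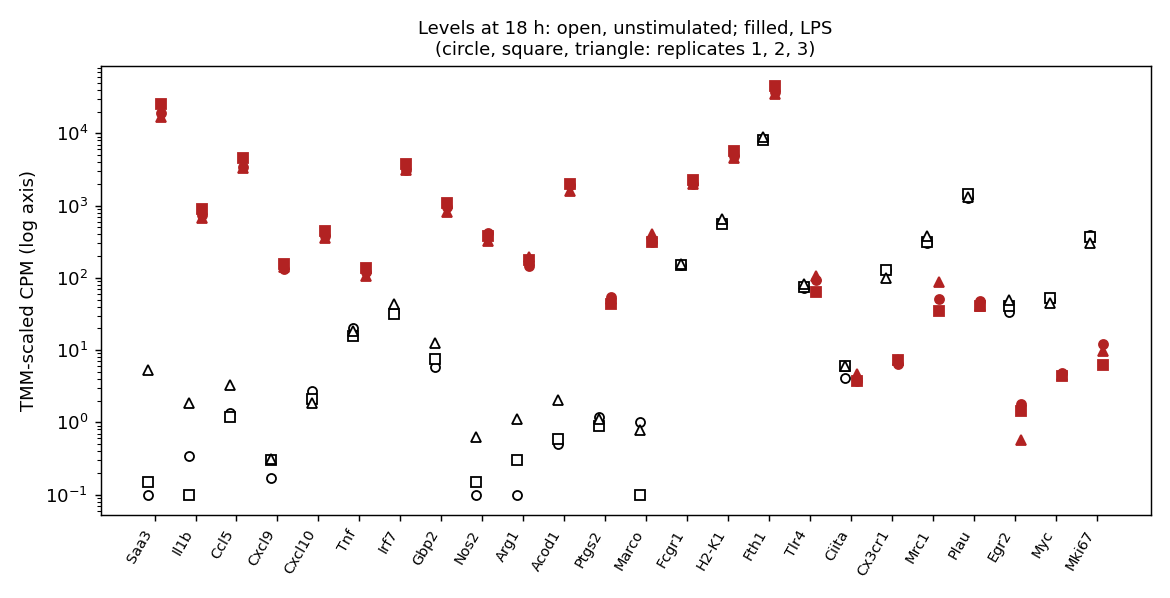
Level of 24 genes in each of the 6 libraries at 18 h, in TMM-scaled CPM on a log axis. Values under 0.1 CPM are drawn at 0.1. Open symbols are unstimulated and filled symbols LPS libraries, with squares for replicate 2 of each group. Groups are apart for each gene shown except Tlr4 and Ciita. LPS replicate 2 is the highest LPS library for genes such as Saa3, Il1b and Ccl5. It is the lowest for others, such as Mki67, Ptgs2 and Mrc1.

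Receptors that guide migration changed in both directions: 11 of 19 rose and 6 fell (median 1.04). The formyl peptide receptor genes Fpr1 and Fpr2, which sense bacterial peptides, went from 0.57 ± 0.209 to 299 ± 35.1 CPM (8.96 ± 0.42) and from 0.698 ± 0.445 to 208 ± 41.8 CPM (8.20 ± 0.52). Ccr1 (2.93 ± 0.09), Ccr7, the lymph node homing receptor (3.60 ± 0.42), Ccrl2 (3.23 ± 0.18) and the chemerin receptor gene Cmklr1 (3.66 ± 0.18) rose. Cx3cr1, the fractalkine receptor of resident macrophages, was read at 129, 127 and 98.6 CPM in unstimulated and 6.4, 7.3 and 7.38 CPM in LPS libraries (-4.07 ± 0.25). Ccr2, the receptor for CCL2, fell from 81.5 ± 7.78 to 40.0 ± 8.01 CPM (-1.02 ± 0.11), the oxysterol receptor gene Gpr183 fell by -3.29 ± 0.18, and C5ar1 and C5ar2, receptors for the complement fragment C5a, fell by -0.81 ± 0.08 and -1.71 ± 0.21.

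In the TNF superfamily 11 of 21 genes rose and 6 fell (median 0.58). Tnf stood at 20.5, 15.5 and 18.5 CPM in unstimulated and 120.0, 135 and 107 CPM in LPS libraries (2.73 ± 0.13). Tnfrsf1b, the second TNF receptor gene, went from 348 ± 38.1 to 3382 ± 230.0 CPM (3.28 ± 0.09), while Tnfrsf1a rose by only 0.58 ± 0.07. The death ligand gene Tnfsf10 (TRAIL) rose by 4.56 ± 0.30, Cd40 by 3.75 ± 0.18 and Fas by 2.54 ± 0.25. Tnfrsf12a (-1.36 ± 0.19), Tnfsf14 (-1.38 ± 0.36) and Tnfsf13, which encodes the B cell factor APRIL (-1.62 ± 0.56; -2.32 without LPS replicate 3), fell.

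Of 10 Toll-like receptor genes 8 rose and none fell (median 1.23). Tlr4 itself stood at 72.0, 74.1 and 82.1 CPM in unstimulated and 93.3, 63.8 and 105 CPM in LPS libraries; the groups overlapped and the change was 0.20 ± 0.13 (edgeR adjusted p = 0.19), a difference that passed the test without LPS replicate 2. Tlr2, the lipoprotein receptor gene, went from 32.5 ± 2.77 to 194 ± 6.56 CPM (2.57 ± 0.09), Tlr9, for CpG DNA, rose by 2.26 ± 0.25 and Tlr3, for double-stranded RNA, by 1.89 ± 0.14. These genes lay a median of 0.30 below the other LPS libraries in replicate 2, and without it 9 of 10 rose with a median of 1.33. Of 20 co-receptor and adaptor genes 18 rose and 1 fell (median 1.02). Cd14 went from 274 ± 26.8 to 751 ± 22.5 CPM (1.46 ± 0.09), Ly96, encoding MD-2, rose by 1.46 ± 0.15, Myd88 by 1.56 ± 0.08 and Ticam1, encoding TRIF, by 1.06 ± 0.10. Irak3, a kinase-like brake on this route, rose most (2.93 ± 0.09), and Irak1 fell by a small amount (-0.26 ± 0.09), a call lost without LPS replicate 2 or without unstimulated replicate 2.

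Genes of the NF-kappaB family and its feedback stood above unstimulated cells, 21 of 27 higher and 5 lower (median 1.21). The 5 largest rises were in Nfkbiz, a nuclear IkappaB gene (3.15 ± 0.15), Bcl3 (3.01 ± 0.16), Nfkbia, encoding IkappaB-alpha (from 46.9 ± 2.92 to 368 ± 36.5 CPM, 2.97 ± 0.08), Nfkbie (2.85 ± 0.14) and the RNase gene Zc3h12a (2.83 ± 0.12). The inhibitor gene Tnfaip3, encoding A20, rose by 2.47 ± 0.10. Of the NF-kappaB subunits, Relb (2.05 ± 0.10) and Nfkb2 (2.02 ± 0.09) rose more than Rela (0.79 ± 0.08), Rel (0.55 ± 0.23) and Nfkb1 (0.24 ± 0.08). The calls of Rel and Nfkb1 were weak: that of Rel was lost without any 1 library other than LPS replicate 2, and that of Nfkb1 without LPS replicate 1 or unstimulated replicate 3, with a negative sign under library-size scaling. Nfkbid (-0.69 ± 0.15), Tnip3 (-0.46 ± 0.08) and the mRNA decay genes Zfp36l1 (-0.60 ± 0.16) and Zfp36l2 (-0.81 ± 0.09) fell. In the group of dual-specificity phosphatases and MAP kinase genes 8 of 22 rose and 5 fell (median 0.16; 7 higher and 11 lower with library-size scaling, median -0.26), with Dusp1, which switches off p38 and JNK, up (2.39 ± 0.08) and Dusp4, which acts on ERK, down (-1.08 ± 0.11).

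All 18 interferon-inducible GTPase genes rose (median 5.26) and 43 of 47 RNA sensors and antiviral effectors rose, with 1 lower (median 3.31). Gbp2, which acts on membranes of pathogens, was read at 5.76, 7.61 and 12.7 CPM in unstimulated and 960.1, 1094 and 817 CPM in LPS libraries (6.77 ± 0.18). Gbp4 rose by 8.41 ± 0.70, the immunity-related GTPase gene Iigp1 by 7.55 ± 0.39, and Mx1 by 6.61 ± 0.15. Tgtp1 and Tgtp2 rose by 7.06 ± 0.25 and 7.12 ± 0.24, and since they are near-identical copies the split of reads between them is uncertain. Rsad2, encoding viperin, rose by 7.5 ± 0.20, Ifit1 went from 9.06 ± 1.96 to 1048 ± 59.7 CPM (6.85 ± 0.21), Ifit3 from 17.0 ± 1.71 to 1499 ± 171 CPM (6.46 ± 0.20) and the ubiquitin-like gene Isg15 from 12.3 ± 1.57 to 1001 ± 175 CPM (6.35 ± 0.14). Slfn1 and Slfn4 of the Schlafen family rose by 8.96 ± 0.40 and 10.21 ± 0.36, and Oasl1 by 7.86 ± 0.26. Tmem173, encoding the DNA-sensing adaptor STING, fell (-0.31 ± 0.09), and Cgas, the enzyme before it, was -0.23 ± 0.15 (edgeR adjusted p = 0.18; called without LPS replicate 3 and with library-size scaling).

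Of 31 genes of interferon regulatory factors, STATs, their receptors and SOCS inhibitors 21 rose and 4 fell (median 0.92; 18 higher and 8 lower with library-size scaling). Irf7, the factor that amplifies interferon production, was read at 33.5, 31.3 and 43.3 CPM in unstimulated and 3086, 3727 and 3075 CPM in LPS libraries (6.51 ± 0.17). Stat2 rose by 3.47 ± 0.10, Irf1 by 2.34 ± 0.08 and Irf8 by 0.45 ± 0.07, which was not called with library-size scaling. Inhibitors rose with them: Socs3 went from 1.24 ± 0.729 to 500.0 ± 11.7 CPM (8.66 ± 0.40), Socs1 rose by 6.25 ± 0.41 and Usp18, which shuts off the interferon receptor, by 5.43 ± 0.16. Irf4 (-1.88 ± 0.49) and Ifngr1, one subunit of the IFNg receptor (-0.54 ± 0.07), fell, while the other subunit gene, Ifngr2, rose (1.23 ± 0.06). Ifnb1, the interferon beta gene itself, had no counts in unstimulated cells and 1.24, 0.417 and 0.567 CPM in the LPS libraries, at least 4.84-fold higher (at least 3.14-fold higher without LPS replicate 1).

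Upstream sequences of 4 of these genes are shown because the windows of this arm share a letter pattern. The search was for AAANNGAAA on both strands, a core of the interferon-stimulated response element (ISRE), which can overlap itself. It was found within 250 upstream bases in 10 of 10 interferon-inducible GTPase genes with a window and in 23 of 41 antiviral genes (56.1%), against 7.36% of tested genes and 9.37% of all windows; it was in 3 of 20 genes of class I antigen presentation (15%). Ifit1 lies at chr19:34640729-34640888 (plus), Ifit3 at chr19:34583369-34583528 (plus), Isg15 at chr4:156200819-156200978 (minus) and Gbp2 at chr3:142620503-142620662 (plus), with matches in capitals.
Ifit1: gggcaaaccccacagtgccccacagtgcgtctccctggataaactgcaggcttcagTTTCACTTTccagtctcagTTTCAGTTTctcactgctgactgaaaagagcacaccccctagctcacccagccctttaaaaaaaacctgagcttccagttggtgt
Ifit3: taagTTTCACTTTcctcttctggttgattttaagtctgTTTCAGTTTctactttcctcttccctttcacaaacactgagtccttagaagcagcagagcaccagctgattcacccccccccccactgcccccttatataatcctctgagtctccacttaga
Isg15: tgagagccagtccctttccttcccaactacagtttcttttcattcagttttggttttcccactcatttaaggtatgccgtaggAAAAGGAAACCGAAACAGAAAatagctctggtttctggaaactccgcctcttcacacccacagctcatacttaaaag
Gbp2: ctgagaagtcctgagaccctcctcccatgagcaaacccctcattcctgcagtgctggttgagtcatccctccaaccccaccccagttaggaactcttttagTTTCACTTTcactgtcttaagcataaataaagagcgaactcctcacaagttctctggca

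Genes that load peptides on MHC class I rose together, 24 of 25 higher and none lower (median 2.45). H2-K1, the classical heavy chain, was read at 581, 554 and 649.6 CPM in unstimulated and 4804, 5723 and 4522 CPM in LPS libraries (3.08 ± 0.09). B2m, the light chain, went from 1194 ± 80.2 to 6259 ± 359 CPM (2.39 ± 0.07), the peptide transporter genes Tap1 and Tap2 rose by 3.17 ± 0.08 and 2.20 ± 0.10, and the immunoproteasome subunits Psmb8, Psmb9 and Psmb10 by 2.55 ± 0.10, 2.45 ± 0.10 and 2.56 ± 0.10. The nonclassical genes H2-Q6 and H2-Q7 rose by 6.68 ± 0.25 and 7.06 ± 0.23, although reads can be shared among these near copies. Nlrc5, the transactivator of class I genes, rose by 2.21 ± 0.12. Together the 25 genes took 0.801% to 0.854% of the counts of unstimulated and 2.47% to 2.7% of those of LPS libraries (exact permutation test, two-sided, p = 0.1, the smallest that 3 against 3 allows). The chaperones shared with other routes, Calr (0.42 ± 0.06) and Pdia3 (0.23 ± 0.07), rose little; neither was called higher with library-size scaling, and the call of Pdia3 was lost without LPS replicate 2, with a negative sign under that scaling.

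For MHC class II 8 of 12 genes rose and none fell (median 1.14; 8 higher and 2 lower with library-size scaling). H2-Ab1 went from 83.9 ± 2.64 to 397 ± 91.8 CPM (2.24 ± 0.12), H2-Aa and H2-Eb1 rose by 1.57 ± 0.11 and 1.57 ± 0.13 and the invariant chain gene Cd74 by 1.21 ± 0.10. Ciita, the master activator of this group, was not called: it stood at 4.06, 5.97 and 5.96 CPM in unstimulated and 3.73, 3.75 and 4.73 CPM in LPS libraries (-0.40 ± 0.25, edgeR adjusted p = 0.16). March1, a ubiquitin ligase that takes class II molecules off the surface, rose by 2.94 ± 0.09. Class II genes lay a median of 0.48 above the other LPS libraries in replicate 2; without it 8 of 12 rose, with a median of 0.95.

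Costimulatory and checkpoint genes were mixed, 17 of 27 higher and 5 lower (median 1.47; 14 higher and 9 lower with library-size scaling). Cd86, which gives T cells their second signal, was read at 2.54, 3.58 and 4.55 CPM in unstimulated and 78.4, 90.5 and 64.1 CPM in LPS libraries (4.43 ± 0.26), and its relative Cd80 rose by 1.47 ± 0.20. The inhibitory ligand gene Cd274 (PD-L1) went from 17.5 ± 2.83 to 1166 ± 135 CPM (6.05 ± 0.13), Slamf7 rose by 3.36 ± 0.11, Lgals9 by 3.17 ± 0.08 and the "do not eat" signal gene Cd47 by 1.81 ± 0.07. Cd83 fell from 35.1 ± 8.93 to 8.45 ± 2.18 CPM (-2.07 ± 0.23), as did Vsir (-0.74 ± 0.07), Cd276 (-1.10 ± 0.12) and Havcr2, encoding TIM-3 (-1.28 ± 0.10).

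Of 13 Fc receptor genes and partners 10 rose and 1 fell (median 1.22; 8 higher and 2 lower with library-size scaling): Fcgr1, for IgG, was read at 153, 149.6 and 154 CPM in unstimulated and 1995, 2267 and 2001 CPM in LPS libraries (3.78 ± 0.08), the inhibitory receptor gene Fcgr2b rose by 5.03 ± 0.15 and Fcgr4 by 4.64 ± 0.11, while Fcrls fell (-2.59 ± 0.17). Of 18 C-type lectin receptor genes 12 rose and 5 fell (median 2.25; 3 fell without LPS replicate 1 or without unstimulated replicate 2). Clec4e, encoding Mincle, the sensor of mycobacterial glycolipid, went from 5.65 ± 1.41 to 668 ± 40.6 CPM (6.87 ± 0.13) and Clec4n rose by 6.18 ± 0.33, but Clec7a, encoding the beta-glucan receptor dectin-1, fell (-1.36 ± 0.11), as did Clec10a (-3.01 ± 0.48) and Clec4b1 (-2.37 ± 0.31).

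Of 26 scavenger and efferocytosis receptor genes 9 rose and 14 fell (median -0.45). Marco, a receptor for bacterial surfaces, was read at 1.02, 0 and 0.784 CPM in unstimulated and 315, 309.8 and 410.4 CPM in LPS libraries (9.17 ± 0.59; 8.56 without unstimulated replicate 2), and Msr1 (2.30 ± 0.08), Siglec1 (2.94 ± 0.23) and Olr1 (2.78 ± 0.60; 13.8-fold higher by summed counts without unstimulated replicate 2 (95% counting interval 4.48 to 69.1)) rose. Mrc1, the mannose receptor gene, stood at 307, 317 and 377 CPM in unstimulated and 50.3, 34.6 and 87.2 CPM in LPS libraries (-2.53 ± 0.18). The falling members included Gas6 (-2.10 ± 0.11), which bridges dying cells to their receptors, Pros1 (-1.46 ± 0.10), Trem2 (from 1085 ± 71.4 to 422 ± 56.6 CPM, -1.36 ± 0.08), Itgav (-1.30 ± 0.10), Scarb1 (-1.31 ± 0.08) and Cd36 (from 2800 ± 147 to 1573 ± 41.6 CPM, -0.83 ± 0.07). Mertk, a receptor for GAS6, rose (1.33 ± 0.12), and its relative Axl was 0.22 ± 0.13 (edgeR adjusted p = 0.14; called without LPS replicate 3 or without unstimulated replicate 2). Of library totals, without TMM scaling, the list as a whole took 1.28% to 1.36% in unstimulated and 0.779% to 0.958% in LPS libraries.

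Of 21 complement genes 13 rose and 5 fell (median 0.90). C3, the central component, went from 12.6 ± 3.25 to 1466 ± 135 CPM (6.86 ± 0.20), and Cfb, which forms the alternative pathway convertase with it, was at least 170.0-fold higher. Cfp, encoding properdin, rose by 1.68 ± 0.08. C1ra (3.76 ± 0.20) rose, and the C1q genes moved less. C1qb rose by 0.28 ± 0.09, which was lost without LPS replicate 2 and turned negative with library-size scaling. C1qa was 0.24 ± 0.14 and C1qc -0.00 ± 0.09 (edgeR adjusted p = 0.14 and 0.97). C1qa was called without LPS replicate 1 or unstimulated replicate 3, and C1qc, as lower, with library-size scaling. Of 25 acute-phase and antimicrobial genes 13 rose and 5 fell (median 0.26; 0.49 without unstimulated replicate 3; 11 higher and 10 lower with library-size scaling, median 0.00). Saa3, an acute-phase protein of macrophages, was read at 0, 0.149 and 5.33 CPM in unstimulated and 19280, 25270 and 17090 CPM in LPS libraries (13.43 ± 0.50). It was 257000-fold higher by summed counts without unstimulated replicate 3 (95% counting interval 46100 to 10100000). Lcn2, which captures bacterial siderophores, went from 15.9 ± 3.16 to 652 ± 144 CPM (5.34 ± 0.14). Hp, encoding haptoglobin, rose by 7.16 ± 0.41, Slpi by 6.47 ± 0.63 and Orm1 was at least 83.4-fold higher. The calcium-binding genes S100a4 (from 888 ± 249 to 121 ± 28.1 CPM, -2.88 ± 0.24) and S100a6 (-1.53 ± 0.23) fell, with Camp (-1.21 ± 0.35) and Ngp (-0.95 ± 0.14), 2 granule genes of neutrophils.

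In the lysosome 28 of 46 hydrolase and membrane genes rose and 10 fell (median 0.35; 20 higher and 19 lower with library-size scaling, median -0.07). Acp5 (4.11 ± 0.14), Ctsc (2.63 ± 0.08), Acp2 (2.44 ± 0.06) and the cholesterol carrier gene Npc2 (1.91 ± 0.08) rose most, and Ctss, a protease for class II loading, went from 2969 ± 127 to 6993 ± 526 CPM (1.24 ± 0.07). Sort1 (-2.18 ± 0.12), the acid lipase gene Lipa (from 1873 ± 32.1 to 825 ± 33.0 CPM, -1.18 ± 0.06) and the hexosaminidase gene Hexa (-0.62 ± 0.07) fell. Of 17 subunits of the vacuolar proton pump 10 rose and 3 fell (median 0.29; 6 higher and 8 lower with library-size scaling, median -0.13). The a subunits went opposite ways: Tcirg1, encoding a3, rose by 1.30 ± 0.08 and Atp6v0a1, encoding a1, fell (-1.62 ± 0.08).

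Among secreted proteases and their inhibitors, 20 of 35 genes rose and 8 fell (median 0.50, or 0.72 without LPS replicate 2 and 0.93 without unstimulated replicate 3). Plau, encoding the urokinase plasminogen activator, was read at 1289, 1452 and 1296 CPM in unstimulated and 47.5, 40.4 and 40.3 CPM in LPS libraries (-4.97 ± 0.09, edgeR adjusted p = 5e-26), while Serpinb2, an inhibitor of it, was 922-fold higher by summed counts (95% counting interval 165 to 36500). It was at least 212-fold higher without unstimulated replicate 1. Mmp14 went from 2.17 ± 0.753 to 541 ± 16.2 CPM (7.95 ± 0.21), Timp1 rose by 7.35 ± 0.29, the matricellular gene Thbs1 by 6.19 ± 0.30 and the clotting factor gene F10 by 5.13 ± 0.20, whereas Mmp12, the macrophage elastase gene, fell from 1930 ± 169 to 585 ± 114 CPM (-1.72 ± 0.11). Of 33 integrin and adhesion genes 18 rose and 14 fell (median 0.47): Itgal, an LFA-1 subunit (3.29 ± 0.12), Icam1, its ligand (2.44 ± 0.08), and Cd38, an enzyme that consumes NAD (8.54 ± 0.59), rose, and Itga6 (-2.74 ± 0.12), Fn1 (-2.84 ± 0.57) and Cd9 (-1.82 ± 0.07) fell. Of other NAD genes, Nampt, which salvages NAD, went from 99.9 ± 1.23 to 362 ± 7.5 CPM (1.86 ± 0.07) and Parp1, which consumes it, from 194 ± 8.48 to 70.0 ± 7.02 CPM (-1.47 ± 0.08).

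Of 25 genes for arginine, nitric oxide and polyamines 12 rose and 10 fell (median 0.29; 9 higher and 12 lower with library-size scaling, median -0.13). Nos2, the inducible nitric oxide synthase gene, was read at 0, 0.149 and 0.627 CPM in unstimulated and 420.3, 382 and 328 CPM in LPS libraries (10.37 ± 0.68). It was 4760-fold higher by summed counts without unstimulated replicate 3 (95% counting interval 855 to 188000). The arginine transporter gene Slc7a2 (5.90 ± 0.18), Ass1, which rebuilds arginine from citrulline (6.40 ± 0.16), and Gch1, for the cofactor tetrahydrobiopterin (2.56 ± 0.10), rose. Arg1, an arginase gene that competes for the same substrate, stood at 0, 0.298 and 1.1 CPM in unstimulated and 147, 178 and 195 CPM in LPS libraries (8.45 ± 0.57). It was 1090-fold higher by summed counts without unstimulated replicate 3 (95% counting interval 301 to 8990). Arg2, the mitochondrial arginase gene, went from 0.199 ± 0.344 to 8.56 ± 1.5 CPM (5.22 ± 0.85; at least 35.2-fold higher without unstimulated replicate 2). The polyamine synthesis genes Odc1 (-0.48 ± 0.10), Srm (-1.51 ± 0.14) and Sms (-1.35 ± 0.10) fell, and the other arginine transporter gene Slc7a1 fell (-1.59 ± 0.13).

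Of 41 genes of itaconate synthesis and the TCA cycle 13 rose and 16 fell; the median was 0.03, -0.01 without unstimulated replicate 3 and -0.39, with 3 higher and 29 lower with library-size scaling. Acod1, which makes itaconate from an intermediate of the cycle, went from 1.05 ± 0.859 to 1829 ± 201 CPM (10.73 ± 0.43; 11.64 without unstimulated replicate 3). Around it, Suclg2 (-2.17 ± 0.15), Idh2 (-1.37 ± 0.09), Idh3a (-1.01 ± 0.11) and Fh1 (-0.97 ± 0.10) fell, Sdhb (0.73 ± 0.08) and Mdh2 (0.53 ± 0.08, not called with library-size scaling) rose, and Cs, the entry enzyme gene, was -0.01 ± 0.06 (edgeR adjusted p = 0.91; called lower with library-size scaling). For 72 nuclear genes of the respiratory chain the count was 30 higher and 5 lower (median 0.16) but 14 higher and 9 lower (median 0.04) without LPS replicate 2. The median was -0.27, with 3 higher and 39 lower with library-size scaling. Of 76 mitochondrial ribosomal protein genes 20 rose and 7 fell (median 0.11), and 12 rose and 12 fell without that library. Their median was -0.31, with 5 higher and 43 lower with library-size scaling. These groups lay a median of 0.37 and 0.33 above the other LPS libraries in replicate 2. Of 28 hypoxia-inducible genes 18 rose and 6 fell (median 0.61; 12 higher and 9 lower with library-size scaling), with Hif1a (2.06 ± 0.10) and Pfkfb3, a driver of glycolysis (4.36 ± 0.11), ahead.

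Of 41 lipid handling genes 18 rose and 16 fell (median 0.11; 15 higher and 22 lower with library-size scaling, median -0.30). Lpl, encoding lipoprotein lipase, went from 7096 ± 74.4 to 1064 ± 68.1 CPM (-2.74 ± 0.07). Fasn (-2.28 ± 0.12), Elovl6 (-2.98 ± 0.29) and Scd1 (-1.97 ± 0.55; -2.59 without LPS replicate 2), for fatty acid synthesis, and Pparg (-2.65 ± 0.14) fell. The acyl-CoA ligase gene Acsl1 rose by 4.18 ± 0.09, its relative Acsl3 fell (-2.39 ± 0.24), and the lipid droplet genes Hilpda (2.86 ± 0.16) and Plin2 (1.01 ± 0.08), the LXR-alpha gene Nr1h3 (2.94 ± 0.10) and the cholesterol exporter gene Abca1 (1.59 ± 0.17) rose. Apoe, the apolipoprotein of macrophages, went from 2922 ± 99.1 to 3396 ± 661 CPM (0.22 ± 0.10, edgeR adjusted p = 0.06, called without LPS replicate 3, negative with library-size scaling). In prostaglandin metabolism 9 of 19 genes rose and 6 fell (median 0.29; 7 higher and 9 lower with library-size scaling, median -0.13). Ptgs2, encoding COX-2, was read at 1.19, 0.895 and 1.1 CPM in unstimulated and 54.2, 42.9 and 50.3 CPM in LPS libraries (5.52 ± 0.41), and Ptges, for prostaglandin E2, rose by 7.84 ± 0.35. The degrading enzyme gene Hpgd was 134-fold lower by summed counts (95% counting interval 36.8 to 1110). It was at least 62.1-fold lower without LPS replicate 2. Ptgs1, encoding COX-1, fell (-3.23 ± 0.50).

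Of 27 heme and iron genes 18 rose and 6 fell (median 0.80). Fth1, the ferritin heavy chain gene, was read at 8327, 8176 and 8804 CPM in unstimulated and 36930, 45120 and 34830 CPM in LPS libraries (2.21 ± 0.07). Hmox1, which opens heme and frees its iron, went from 479 ± 9.93 to 5742 ± 673 CPM (3.58 ± 0.07). The heme-responsive factor gene Spic (5.64 ± 0.40; 6.22 without unstimulated replicate 3), Cp, a ferroxidase (6.24 ± 0.26), and the metal transporter genes Slc11a1 (1.75 ± 0.06) and Slc11a2 (1.99 ± 0.09) rose, Tfrc, encoding the transferrin receptor, fell (-1.15 ± 0.17), and Slc40a1, the exporter gene, rose by 0.66 ± 0.09. The list took 2.12% to 2.18% of counts in unstimulated and 4.89% to 5.93% in LPS libraries (exact permutation p = 0.1). Of 16 purine signalling genes 11 rose and 3 fell (median 1.11), with the adenosine receptor genes Adora2a (5.33 ± 0.55; 68.3-fold higher by summed counts without unstimulated replicate 1 (95% counting interval 23.1 to 333)) and Adora2b (4.17 ± 0.25) ahead.

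Of 41 replication fork and origin genes all 41 fell (median -2.27), of 41 centromere and kinetochore genes 40 fell and none rose (median -4.37), and of 40 cyclins, CDKs, their inhibitors and E2F factors 32 fell and 5 rose (median -1.64). Mki67, the proliferation marker gene, was read at 391, 364 and 309 CPM in unstimulated and 12.1, 6.25 and 9.83 CPM in LPS libraries (-5.22 ± 0.23). The mitotic cyclin genes Ccnb1 (-6.28 ± 0.53) and Ccnb2 (-7.68 ± 0.90) fell, and Ccnb2 was -7.08 without LPS replicate 1 and at least 196-fold lower without LPS replicate 3. Foxm1, the factor that drives them, fell from 71.0 ± 7.96 to 0.369 ± 0.296 CPM (-7.46 ± 0.82). It was 357-fold lower by summed counts without LPS replicate 1 (95% counting interval 98.7 to 2950). Kif14, a mitotic motor gene, had 31.8, 25.5 and 23.5 CPM in unstimulated libraries and no counts with LPS, which is at least 140.0-fold lower. The G1 cyclin gene Ccnd1, a target of CSF-1 signalling, fell less (from 565 ± 59.1 to 161 ± 5.95 CPM, -1.81 ± 0.09), while Ccnd2 (1.86 ± 0.16) and Ccnd3 (0.47 ± 0.09, not called with library-size scaling) rose. Cdkn1a, encoding the inhibitor p21, rose from 229 ± 13.5 to 792 ± 62.0 CPM (1.79 ± 0.08), and Cdkn2c, encoding p18, fell (-4.92 ± 0.26). Of nucleotide synthesis genes 21 of 28 fell and 3 rose (median -1.52), among them Rrm2 (-6.71 ± 0.41), Tk1 (-5.36 ± 0.31) and Tyms (-3.44 ± 0.24). Samhd1, which destroys deoxynucleotides, rose from 219 ± 6.28 to 1132 ± 28.2 CPM (2.37 ± 0.09).

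Upstream sequences of 3 falling genes are shown because cell cycle promoters are known for CCAAT boxes and E2F sites. CCAAT, sought on both strands over 250 bases, was in 20 of 37 kinetochore genes (54.1%), 19 of 33 replication genes (57.6%) and 13 of 30 cyclin, CDK and E2F genes (43.3%), against 36.6% of tested genes and 33.8% of all windows, but also in 15 of 20 class I genes (75%), which rose. TTTNGCGC, an E2F-like pattern, was in 6 of 33 replication genes (18.2%), 3 of 30 cyclin, CDK and E2F genes (10%) and 1 of 37 kinetochore genes, against 2.11% of tested genes and 1.13% of all windows. TTTGAA, a pattern of the cell cycle homology region, was in 5 of 37 kinetochore genes (13.5%), 4 of 33 replication genes (12.1%) and 8 of 30 cyclin, CDK and E2F genes (26.7%), against 10.7% of tested genes and 16% of all windows. Ccnb2 lies at chr9:70421555-70421714 (minus strand) and Cenpf at chr1:189688087-189688246 (minus), with CCAAT on either strand in capitals, and Mcm5, a helicase subunit gene that fell (-4.01 ± 0.17), at chr8:75109349-75109508 (plus), with the E2F-like match in capitals.
Ccnb2: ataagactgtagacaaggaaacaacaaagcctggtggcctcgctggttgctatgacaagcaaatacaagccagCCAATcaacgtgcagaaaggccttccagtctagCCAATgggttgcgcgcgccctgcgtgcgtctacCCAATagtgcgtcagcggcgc
Cenpf: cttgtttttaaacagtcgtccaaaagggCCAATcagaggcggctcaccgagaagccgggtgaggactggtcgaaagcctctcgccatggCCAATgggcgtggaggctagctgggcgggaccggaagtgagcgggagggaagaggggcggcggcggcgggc
Mcm5: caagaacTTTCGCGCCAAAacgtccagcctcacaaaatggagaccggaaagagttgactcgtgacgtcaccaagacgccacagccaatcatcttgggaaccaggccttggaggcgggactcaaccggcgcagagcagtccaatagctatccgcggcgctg

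Of 86 cytosolic ribosomal protein genes 74 fell and 2 rose (median -0.55, or -0.97 with library-size scaling). Their share of library totals, which takes no TMM scaling, went from 3% to 3.17% in unstimulated to 1.37% to 1.71% in LPS libraries. Rpl10a (-2.17 ± 0.08), Rpl3 (-1.93 ± 0.07) and Rpl12 (-1.42 ± 0.10) were among the 4 largest falls. They lay a median of 0.40 above the other LPS libraries in replicate 2, and without it 77 of 86 fell (median -0.70). Of 41 translation factor and ribosome assembly genes 28 fell and 3 rose (median -0.52): Eef1a1, the elongation factor gene, went from 4837 ± 112 to 2226 ± 139 CPM (-1.12 ± 0.06), and the nucleolar genes Ncl (-1.01 ± 0.08), Npm1 (-1.14 ± 0.08) and Dkc1 (-2.16 ± 0.17) fell, while the cap-binding gene Eif4e rose (0.30 ± 0.08, negative with library-size scaling). Myc, which drives such genes, went from 49.5 ± 3.78 to 4.57 ± 0.212 CPM (-3.43 ± 0.19).

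Among growth factors and genes kept up by CSF-1, 6 of 24 rose and 11 fell (median -0.22; 3 higher and 15 lower with library-size scaling). Csf1r, the CSF-1 receptor gene, rose slightly (from 1766 ± 39.9 to 2084 ± 60.5 CPM, 0.24 ± 0.07), with the opposite sign under library-size scaling, and Csf1 itself rose by 2.49 ± 0.20. Igf1 (-0.61 ± 0.06), Pdgfb (-1.60 ± 0.10), Dab2 (-1.33 ± 0.12) and Tgfbr1 (-1.47 ± 0.09) fell, whereas Inhba, encoding activin A (6.76 ± 0.87; 195-fold higher by summed counts without unstimulated replicate 3 (95% counting interval 53.8 to 1620)), and Tgfbi (from 392 ± 42.0 to 4719 ± 501 CPM, 3.59 ± 0.12) rose. Of 65 transcription factor genes of macrophages and stimulus responses 31 rose and 20 fell (median 0.31; 25 higher and 28 lower with library-size scaling, median -0.11). Batf (4.86 ± 0.34), Mxd1, an antagonist of MYC (3.82 ± 0.15), Cebpb (2.86 ± 0.11) and Kdm6b (2.23 ± 0.20) rose. Egr2, an immediate early gene, was read at 34.2, 40.9 and 49.1 CPM in unstimulated and 1.78, 1.46 and 0.567 CPM in LPS libraries (-5.0 ± 0.36), Egr1 (-3.68 ± 0.52) and Nr4a1 (-3.12 ± 0.49) fell, and Fosb was 26.9-fold lower by summed counts (95% counting interval 7.15 to 227). Of the lineage factors, Irf8 (0.45 ± 0.07, not called with library-size scaling) rose slightly and Maf went from 172 ± 9.54 to 274 ± 39.4 CPM (0.68 ± 0.09).

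Of 36 genes of the integrated stress and unfolded protein responses 17 rose and 14 fell (median 0.08; 11 higher and 20 lower with library-size scaling, median -0.34). Ddit3, encoding CHOP, rose by 2.37 ± 0.14, Atf4 by 0.70 ± 0.08 and Slc7a11, the cystine transporter gene, by 5.23 ± 0.17, while the serine synthesis genes Phgdh (-2.99 ± 0.20), Psat1 (from 101 ± 6.07 to 14.9 ± 1.28 CPM, -2.76 ± 0.13) and Shmt2 (-2.22 ± 0.12) and the leucine transporter gene Slc7a5 (-2.00 ± 0.18) fell. Of 31 death pathway genes 18 rose and 5 fell (median 0.68; 15 higher and 10 lower with library-size scaling). Zbp1, a sensor that triggers necroptosis, went from 8.18 ± 1.59 to 529.7 ± 25.2 CPM (6.02 ± 0.15), and Mlkl, the executor of that death, rose by 3.32 ± 0.10; the survival genes Cflar (2.85 ± 0.10), Mcl1 (1.78 ± 0.08) and Birc3 (2.66 ± 0.12) rose as well, and Bcl2 fell (-0.86 ± 0.21). Of 36 chromatin genes 13 rose and 14 fell (median -0.07; 6 higher and 22 lower with library-size scaling), with Uhrf1 (-6.01 ± 0.36), Ezh2 (-2.83 ± 0.20) and Dnmt1 (-1.15 ± 0.09), all tied to replication, among the lower genes and the demethylase gene Kdm6b among the higher.

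The 18 h response was next set against that at 1 h, which used other control libraries. At 1 h 10.8% of genes were higher and 11.4% lower. Of the 4055 genes higher at 18 h, 816 were higher at 1 h as well, which is 20.1% of the later and 59.3% of the earlier list. Of the 4000 lower genes 455 were lower at both times, 11.4% of the later and 31.1% of the earlier list. The difference between the responses was tested for each gene by an interaction contrast, and 27.0% of genes had a higher and 27.2% a lower response at 18 h. A response on opposite sides was found for 249 genes higher at 1 h and lower at 18 h and for 394 genes the other way. The difference was called for all of them. With calls on opposite sides that outcome is close to given, so it is no separate support.

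The antiviral list had 15 of 47 members higher at 1 h (median 0.23) and a higher response at 18 h for 43. Of 18 interferon-inducible GTPases 4 were higher at 1 h and 17 had a higher response at 18 h. Slfn4 was 0.07 ± 0.53 at 1 h, where the libraries read 1.11, 0.882 and 1.5 CPM without and 0.814, 1.57 and 1.25 CPM with LPS, and the difference of responses was 10.14 ± 0.64. Irf7 was 0.23 ± 0.20 at 1 h (difference 6.28 ± 0.27), Hmox1 -0.11 ± 0.07 (3.70 ± 0.10), Fcgr1 -0.31 ± 0.09 (4.09 ± 0.12) and H2-K1 0.57 ± 0.09 (2.51 ± 0.13). Nos2 had no counts at 1 h in either group. Stat2 was -0.69 ± 0.12 at 1 h and 3.47 ± 0.10 at 18 h (difference 4.16 ± 0.15).

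Of 27 NF-kappaB genes 23 were higher at 1 h (median 2.35), and 15 had a lower and 4 a higher response at 18 h. Interleukin and chemokine lists had more members with a higher than with a lower response at 18 h. The counts were 13 and 3 for the interleukin-1 family and inflammasome and 12 and 6 for the IL-6, IL-10 and IL-12 families. They were 6 and 4 for CC and 6 and 3 for CXC chemokines. The TNF superfamily leaned the other way, with 6 higher and 9 lower. Of the genes with a smaller response below, Tnf, Tnfaip3 and Dusp1 went with most of their lists, and Cxcl2 and Ccl4 against theirs. Tnf, at 7.14 ± 0.11 at 1 h (4821, 4925 and 5041 CPM with LPS), had a difference of -4.41 ± 0.17. Cxcl2 (-2.67 ± 0.31), Ccl4 (-3.64 ± 0.16), Tnfaip3 (-3.14 ± 0.14) and Dusp1 (-0.83 ± 0.12) likewise had a smaller response at 18 h. Il1b (-0.07 ± 0.88, edgeR adjusted p = 0.97) and Il1a (-0.22 ± 0.75, edgeR adjusted p = 0.82) did not pass the test of the difference, and both differences turned positive without unstimulated replicate 3 at 18 h. Egr2 (2.94 ± 0.10 at 1 h), Cd83 (4.11 ± 0.13), Icosl (3.50 ± 0.15) and Myc (1.01 ± 0.09) rose at 1 h and fell at 18 h, with differences of -7.94 ± 0.37, -6.18 ± 0.26, -4.10 ± 0.24 and -4.44 ± 0.21. Icosl, a costimulatory ligand gene, was -0.59 ± 0.19 at 18 h, a call lost without LPS replicate 3. At 1 h, 3 of 41 replication genes were lower (median -0.04) and 4 of 41 kinetochore genes (median -0.07), with none higher, and Mki67 was slightly higher (0.55 ± 0.14, difference -5.77 ± 0.26).

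**Figure D4:**
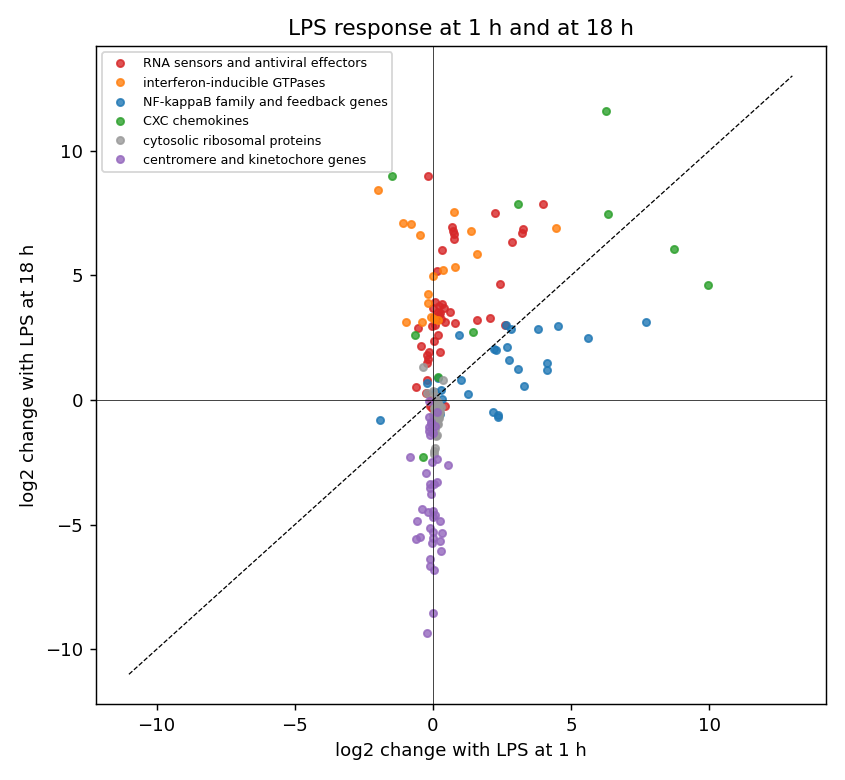
Log2 change with LPS at 1 h (horizontal) and at 18 h (vertical) for members of 6 gene groups, with the diagonal of equal change. Antiviral and GTPase genes have medians near 0 at 1 h (0.23 and -0.03), and most lie high at 18 h. At 1 h 15 of 47 antiviral genes were called higher and 4 lower, and 4 of 18 GTPase genes were called higher. NF-kappaB genes lie mostly right of the diagonal, and kinetochore genes lie mostly near 0 at 1 h and far below 0 at 18 h.

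LPS with IFNg at 18 h was tested directly against LPS alone, since comparisons with the unstimulated cells would share those libraries. LPS with IFNg was higher than LPS for 24% and lower for 23.4% of genes, with a median over all genes of -0.004. Of 25 acute-phase genes 20 were lower with IFNg and none higher (median -1.62). Hp stood at 222, 300.4 and 165 CPM with LPS and 1.95 ± 0.119 CPM with IFNg added (-6.87 ± 0.39), Lcn2 was -3.94 ± 0.12, Saa3 -2.90 ± 0.17 and Slfn4 -2.22 ± 0.10. The neutrophil attractant gene Cxcl3 (-4.56 ± 0.27), Serpinb2 (-5.14 ± 0.40), Arg1 (-3.17 ± 0.14), Marco (-1.19 ± 0.12) and Fpr1 (-2.34 ± 0.09) were also higher with LPS alone. Chemoattractant receptor genes leaned the same way, 15 of 19 lower with IFNg and 2 higher (median -0.90), and so did scavenger receptors, 17 of 26 lower and 5 higher (median -0.72).

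On the other side, all 18 interferon-inducible GTPase genes were higher with IFNg added (median 2.26), although LPS alone had raised each of them. Ciita, which LPS alone left at 4.07 ± 0.569 CPM, stood at 186 ± 3.66 CPM with IFNg (5.50 ± 0.20), and 9 of 12 class II genes were higher and 1 lower (median 1.72), with H2-Ab1 at 1.66 ± 0.11. Nos2 was 3.97 ± 0.09, Cxcl9 4.76 ± 0.12, Ptgs2 5.55 ± 0.12, Cd86 3.09 ± 0.12, Il12b 4.58 ± 0.30 and Irf8 2.26 ± 0.07 against LPS alone. The antiviral list had a small median change of 0.21, with 20 of 47 higher and 11 lower, against 24% higher and 23.4% lower of all genes. In other groups, Irf7 (0.14 ± 0.15, edgeR adjusted p = 0.48), Ccl5 (0.10 ± 0.10, edgeR adjusted p = 0.44, called without LPS replicate 2) and H2-K1 (0.05 ± 0.09, edgeR adjusted p = 0.72) did not pass the test. Of 28 hypoxia-inducible genes 25 were higher and 1 lower with IFNg (median 1.15). Ribosomal protein genes were lower again, 80 of 86 with 1 higher (median -0.86). In LPS replicate 2, part of the reference group here, they lay a median of 0.40 above the other LPS libraries. Their count without that library was not tested.

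**Figure D5:**
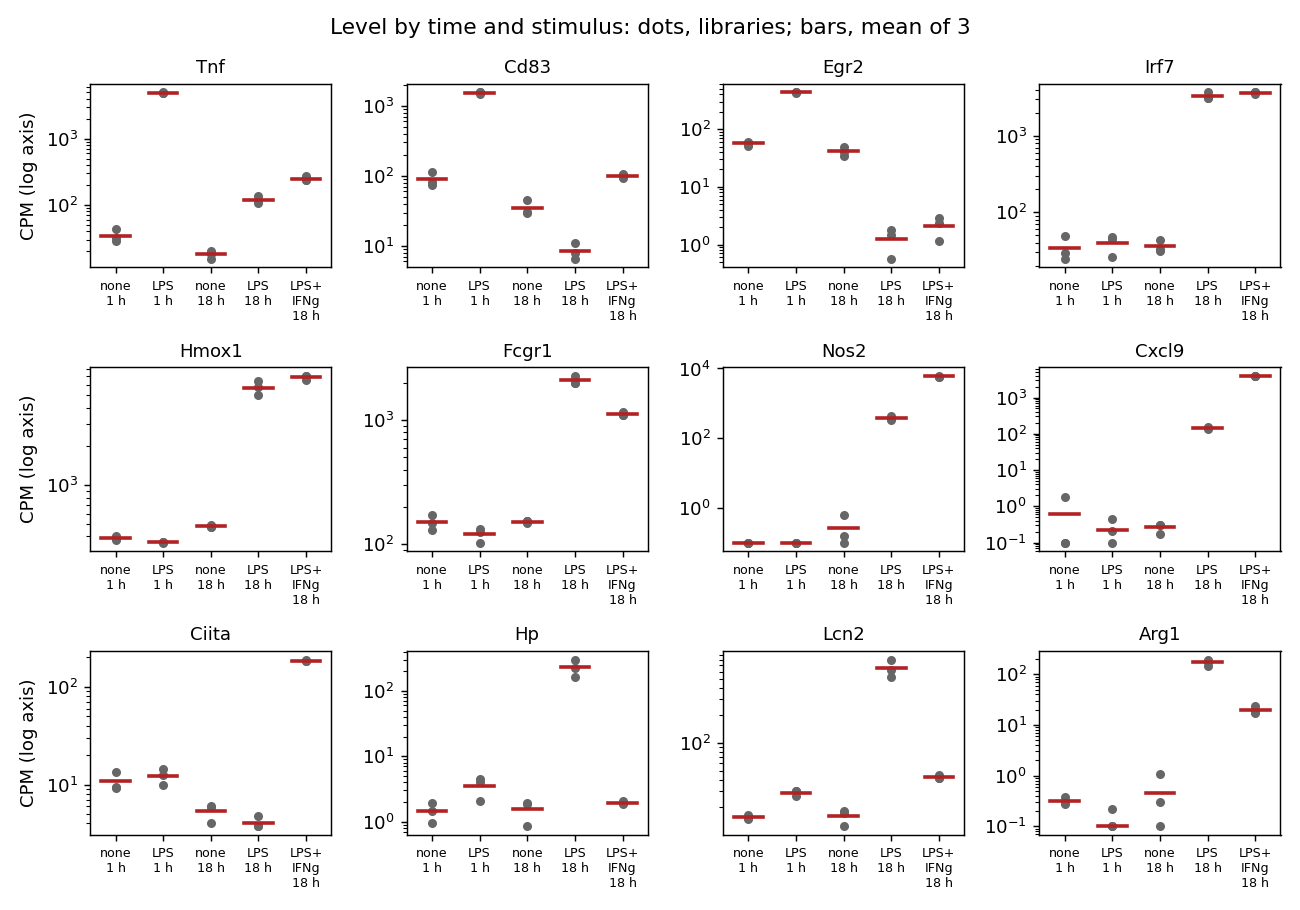
Mean level of 12 genes, in TMM-scaled CPM on a log axis (values under 0.1 drawn at 0.1), for cells unstimulated or given LPS for 1 h and 18 h and for LPS with IFNg at 18 h, with a dot for each of 3 libraries. Tnf, Cd83 and Egr2 peak with LPS at 1 h, Irf7, Hmox1 and Fcgr1 are high at 18 h and not at 1 h, and Nos2, Cxcl9 and Ciita are highest with IFNg added while Hp, Lcn2 and Arg1 are highest with LPS alone.

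Leaving out LPS replicate 2 left 3978 genes higher and 3892 lower, and 7362 calls (91.4% of those with all libraries) were made in both with the same sign. Class II, ribosomal, respiratory and mitochondrial ribosomal genes moved toward lower values without it, as given above. Interferon-inducible GTPases (18 of 18 higher), CC chemokines (12 of 12), replication genes (41 of 41 lower) and kinetochore genes (40 of 41) had the counts given above without it.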

How the data were processed

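RNA sequencing counts per gene identifier were deposited by the authors as whole numbers for each library. Per the submitters' processing notes, the tools named are STAR, featureCounts, deepTools and DESeq2 with genome build GRCm38; strand setting and filters are not given in the sources used here. Symbols, positions and exon lengths come from the supplied annotation, and upstream sequences from RefSeq on GRCm38.p6, of which 9362 of 12765 tested genes had a window. From the counts, a quasi-likelihood model (edgeR 4.0.16 in R 4.3.3) was fitted to all 24 libraries in 8 groups with TMM scaling, keeping genes by filterByExpr with a minimum count of 10, and p-values were adjusted by Benjamini-Hochberg over all tested genes, with calls at 0.05. The SE is the Wald SE of that fit. A gene with 0 counts in a group is given as a bound from 3 counts over the group, and 1 with 1 to 3 counts as a ratio with an exact 95% interval, which covers counting error only. Shares of counts are shares of library totals without TMM scaling, and were compared by an exact permutation test.

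Genes named are the 20 largest called rises and 20 largest called falls with a mean of at least 5 CPM and groups that did not overlap, the 15 largest called differences each way in both other comparisons, the 12 genes furthest from the group each way in LPS replicate 2, and a set core of macrophage genes. Of each gene group they are every member where 15 or fewer were measured, otherwise up to 8 called rises and 6 called falls and any called member against the trend; a few genes that meet the rule are not reported here. Members and lists were chosen with earlier results of these data known. Of 306 genes named with a value of these comparisons, 42 lie outside that rule and were chosen after their values were seen: Atf4, Axl, B2m, C1qa, C1qb, C1qc, Calr, Casp1, Cd47, Cd80, Cdkn2c, Cgas, Cs, Dnmt1, Eef1a1, Gsdmd, H2-K1, Ifit3, Ifnb1, Ifngr2, Igf1, Irf1, Isg15, Lgals9, Ncl, Nfkb1, Nfkb2, Nlrc5, Nlrp3, Pdia3, Plin2, Psmb10, Psmb8, Psmb9, Rel, Rela, Relb, Scarb1, Slc11a1, Tap2, Ticam1 and Tnfrsf1a. On simulated counts for the 18 h comparison (12157 genes), 42 of 67 genes changed 1.5-fold, 57 of 67 changed 2-fold and 64 of 66 changed 4-fold were called, with 9 false among 172 calls. All simulated libraries had the unstimulated 18 h means apart from 200 changed genes, whereas 63.1% of genes were called in the data. The simulation held no deviation by exon length either. It therefore does not measure error from scaling or from LPS replicate 2. Alternatives were DESeq2 1.42.0, limma-voom 3.58.1, other scalings, no filter, a threshold of 0.01, a replicate block, the groups alone and each library left out.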

Additional observations from a re-analysis of the deposited data

Results flagged for a closer look

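The response to LPS at 18 h differed from that at 1 h by the interaction test in edgeR for 249 genes that were higher at 1 h and lower at 18 h and for 394 genes that were lower at 1 h and higher at 18 h. These are all the genes called on opposite sides, so the interaction test removed none. Differences below are the log2 response at 18 h minus that at 1 h, with 3 libraries in each of 4 groups. The response was larger at 18 h for Slfn4 (10.14), Irf7 (6.28), Stat2 (4.16), Fcgr1 (4.09), Hmox1 (3.70) and H2-K1 (2.51). It was lower at 18 h for Egr2 (-7.94), Cd83 (-6.18), Mki67 (-5.77), Myc (-4.44), Tnf (-4.41), Icosl (-4.10), Ccl4 (-3.64), Tnfaip3 (-3.14), Cxcl2 (-2.67) and Dusp1 (-0.83). Each group has 3 libraries, too few for a test of single outlying values.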

How the results depend on the processing

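The numbers of higher and lower genes at 18 h stayed within 1.5 times of those given under every alternative run except scaling by library totals. That scaling gave 2079 higher and 6984 lower genes, moved the median of all genes from 0.01 to -0.41 and the share of higher calls from 50.3% to 22.9%. For the difference from 1 h it gave 2378 higher and 4616 lower genes in place of 3452 and 3467, and for IFNg 2329 and 3912 in place of 3059 and 2992. It reversed the sign of Nfkb1 (-0.18), Pdia3 (-0.20), C1qb (-0.14), Apoe (-0.21), Eif4e (-0.13) and Csf1r (-0.18) and ended the calls of Ccl6, Rel, Irf8, Calr, Mdh2 and Ccnd3; the cause was not tested. Leaving out 1 library at a time gave 3860 to 3978 higher and 3792 to 3892 lower genes. With a replicate block 4175 genes were higher and 4093 lower. Whether the replicate numbers pair the samples is not stated. Deviations of LPS and unstimulated libraries from their group means correlated between -0.06 and 0.055. These values cannot decide on pairing, because the distance of LPS replicate 2 from its group enters them. The main fit did not use the block. It changed no call of a named gene except that Apoe passed the test. Of 4577 gene values under alternatives, 23 lost and 17 gained a call, and 321 of 344 gene results neither lost nor gained a call nor, where called, changed sign. Depth limits genes near 3 counts a group.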
